A study of Homo sapiens with 3 samples.

Results

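The insulin-like growth factor (IGF) axis was described in LX-2 cells with and without FGF19 through 10 genes, picked by their symbols in the deposited expression table. They were the ligand gene IGF2, the receptor genes IGF1R, INSR and IGF2R, and the binding protein genes IGFBP2, IGFBP3, IGFBP4, IGFBP5, IGFBP6 and IGFBP7. All 10 were among the 24254 gene symbols listed, and 9 of them reached the mean of 0.5 FPKM asked of a gene before a fold change was computed, as did 12422 symbols of the whole table. FPKM divides the fragments of a gene by transcript length and by the mapped fragments of the library, so levels of different genes are compared here per length.

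LX-2 is an immortalised line of human hepatic stellate cells. Poly(A) RNA was sequenced from 1 vehicle culture, 1 culture given recombinant human FGF19 (rhFGF19) at 50 ng/mL and 1 culture given 100 ng/mL, to see which genes respond to FGF19. The series text and the paper give 24 h of stimulation, whereas a field of the sample records gives 72 h and 73 h and exchanges the doses, and the doses used here are those of the sample titles. With 1 library per condition no comparison has a replicate check, no p-value was computed, and both rhFGF19 libraries were compared with the same vehicle library.

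IGF1 and IGF2 are secreted growth factors that signal through the tyrosine kinase receptors IGF1R and INSR, which pass the signal to IRS adaptors and the PI3K-AKT pathway. IGF2R, the cation-independent mannose 6-phosphate receptor, takes up IGF2 for breakdown and also sorts lysosomal enzymes. IGF binding proteins hold the ligands outside the cell until proteases such as PAPP-A cut them, and in the liver stellate cells are a source of several of these proteins.

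The libraries held most stellate cell markers, and fold changes over the whole table followed the GC content of transcripts. Of 12 stellate cell or fibroblast markers, 9 had at least 1 FPKM in all 3 libraries, but the defining genes LRAT, DES and COL1A2 were at or near 0. The summed level of the 12 was 1120 in vehicle, 1179 with 50 and 1187 with 100 ng/mL. Its largest parts moved in opposite directions. VIM went from 439 to 654 and 649 FPKM, whereas TIMP1 went from 308 to 184 and 193 and TAGLN from 223 to 118 and 126. The 8 hepatocyte markers summed to between 11.4 and 12.6 FPKM. Nearly all of that sum was SERPINA1, at 8.93, 9.62 and 9.11 FPKM, and ALB, at 2.16, 2.49 and 1.89 FPKM, with HNF4A at no more than 0.01. The 4 endothelial markers summed to between 0.48 and 0.50, the 4 listed blood cell markers to between 42.4 and 52.0, and the 3 listed epithelial markers to between 78.5 and 121. Most of the blood cell sum was CD68, at 47.5 FPKM in vehicle beside 4.28 for CD14 and 0.16 for LYZ. Nearly all of the epithelial sum was KRT8, with CDH1 and KRT19 at no more than 0.11 FPKM. PTPRC, CD3E and EPCAM were not listed. In RNA from a whole culture, fewer cells of a kind and less RNA per cell cannot be told apart. FPKM values keep no read counts, so depth is unknown and no interval could be given. The summed FPKM was 302243 in vehicle, 276690 with 50 and 281606 with 100 ng/mL, and 8890, 10925 and 10894 genes had at least 1 FPKM. Fold changes are differences of log2(FPKM + 0.1), where the pseudocount of 0.1 shrinks those of low genes. The median fold change of all symbols against vehicle was 0.62 at either dose. Fold changes were lower the richer a transcript was in GC (Spearman rho -0.77 over all symbols at each dose), so fold changes are also given after that trend was subtracted, and whether the trend is technical was not tested.

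IGFBP4 and IGFBP6 dominated the axis in LX-2 cells. IGFBP4, a binding protein that restrains IGF action until PAPP-A cuts it, was listed at 427 FPKM in vehicle, 288 with 50 and 286 with 100 ng/mL, which put it at percentile 99.2 of all expressed symbols in vehicle. IGFBP6, the family member that prefers IGF2, was listed at 291, 187 and 180 FPKM in the same order. Both were lower in the rhFGF19 libraries than in vehicle, and the rhFGF19 libraries stood close to each other. Next in mean level came IGFBP5, a matrix-bound binding protein, at 12.7, 32.5 and 34.1 FPKM, and IGF2R at 10.8, 19.4 and 19.02 FPKM. IGFBP7, a low-affinity IGF binder made by vascular and stromal cells, and IGF2 itself lay below 10 FPKM in every library. IGF1R, IGFBP3, INSR and IGFBP2 followed in that order of mean level. In vehicle IGFBP7 stood above IGF2, at 7.32 against 5.54 FPKM, and in the rhFGF19 libraries it stood below, and the other genes kept their order in all 3 libraries. With 1 library per condition there is no spread by which to say which neighbours in this order differ.

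**Figure D1:**
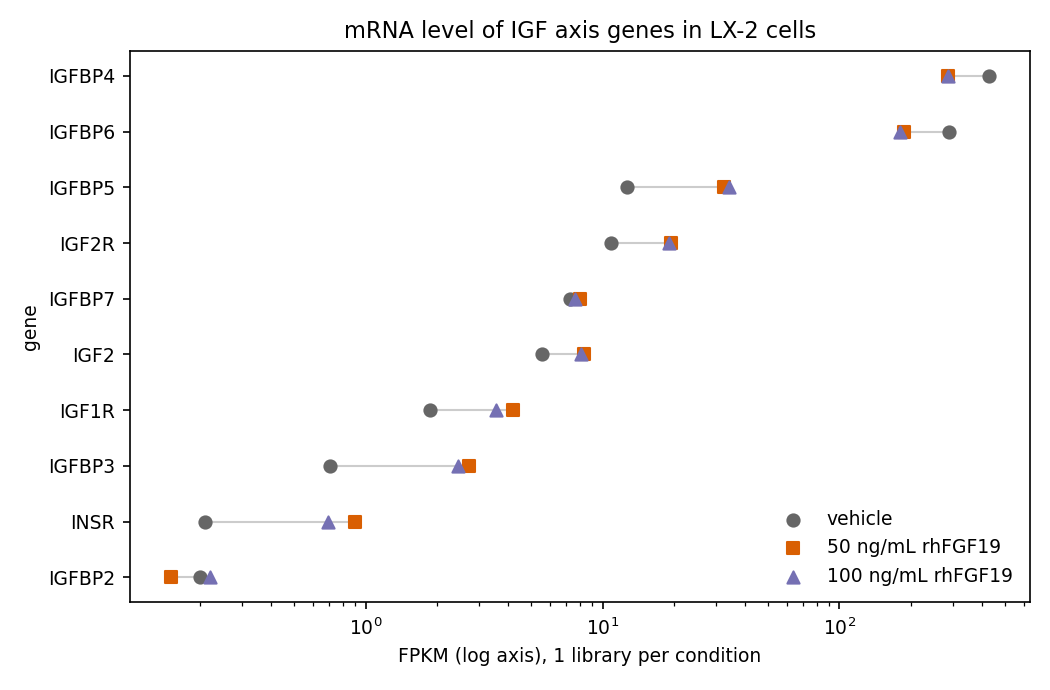
FPKM of the 10 genes in the vehicle, 50 ng/mL and 100 ng/mL rhFGF19 libraries on a log axis, 1 point per library, ordered by mean level. IGFBP4 and IGFBP6 lie above 180 FPKM in all libraries, IGFBP2 below 0.3 FPKM, and the rhFGF19 points lie to the right of vehicle for IGFBP5, IGF2R, IGF2, IGF1R, IGFBP3 and INSR and to the left for IGFBP4 and IGFBP6.

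Against vehicle, 4 of the 9 genes with a fold change were higher by more than 2-fold at 50 ng/mL, against 39.4% of all symbols, and 3 of 9 at 100 ng/mL, against 38.5%. None was lower by more than 2-fold at either dose, against 1.75% and 1.47% of all symbols. The genes past 2-fold were IGFBP3, IGFBP5 and INSR at both doses and IGF1R at 50 ng/mL, so the count of higher genes stood near the share of the whole table. INSR, at 0.21 FPKM in vehicle, reached the mean of 0.5 FPKM only through the rhFGF19 libraries, so that it had to differ and the count is a description only. With a mean of 1 FPKM asked for, INSR was not counted and 3 of 8 genes were higher with 50 and 2 with 100 ng/mL. Among the 10485 symbols at that level, 3966 and 3876 were higher. Of the 9 genes, 7 were above 0 on the log2 scale at both doses, where 7859 of 12422 symbols were. At 50 and 100 ng/mL taken alone, 65.6% and 65.8% of all symbols were above 0. The median of the 9 was 0.84 and 0.81, beside 0.62 over all symbols. Between the rhFGF19 libraries themselves 0 of 9 differed by more than 2-fold, where 0.829% of all symbols were higher and 0.797% lower at 100 ng/mL, and the widest gap of a gene of the axis was 0.34 (log2, INSR). That gap is close to the spread of all symbols between these libraries, which had an SD of 0.32. The split of all symbols depended on scaling. With the median ratio set to 0, 3774 symbols were higher and 781 lower at 50 ng/mL, and with quantile normalization 1142 were higher and 1224 lower, where the unscaled values gave 4898 and 217. The genes of the axis past 2-fold kept a value above 0 under each scaling.

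IGFBP3 had the largest difference of the axis on the log2(FPKM + 0.1) scale. It encodes the main carrier of IGFs in blood and is also secreted by fibroblasts. Its level was 0.71 FPKM in vehicle, 2.74 with 50 and 2.46 with 100 ng/mL, which is 3.86-fold and 3.46-fold vehicle. On the log2 scale the differences were 1.81 and 1.66. The gene was low in every library, at percentile 20.4 of expressed symbols in vehicle, so its folds compare low values. Its median transcript GC content was 55.7%, where the trend over all symbols was near 0, and 1.78 and 1.63 remained once that trend was removed, at percentiles 99.5 and 99.3 of all symbols. With the GC content of its longest listed transcript in place of the median over transcripts, a choice made after seeing the data, 1.60 and 1.45 remained, so the gene stood past 2-fold under either correction. Under quantile normalization it fell short of 2-fold, at 0.92 and 0.78.

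IGFBP5 was the binding protein with the largest gain in FPKM. It went from 12.7 FPKM in vehicle to 32.5 with 50 and 34.1 with 100 ng/mL, 2.57-fold and 2.69-fold, or 1.36 and 1.42 on the log2 scale. Removing the GC trend left 1.51 and 1.56. The correction depended on which transcript was taken, because its listed transcripts had a median GC content of 57.5% and the longest of them, of 6215 bases, had 51.9%. With the longest transcript 0.93 and 1.004 remained, below and just above the 2-fold line, at percentiles 95.9 and 97.1 of all symbols. With the trend on transcript length removed in place of that on GC, 0.48 and 0.56 remained. IGFBP5 lies 7668 bases from IGFBP2 on chromosome 2, transcribed from the opposite strand with no listed gene between them. IGFBP2, which binds IGF2 with a preference over IGF1, was listed at 0.20, 0.15 and 0.22 FPKM and fell below the level needed for a fold change. Of this neighbouring pair 1 gene was thus among the higher genes of the axis and the other stayed near the lowest values the table lists. IGFBP3 has a neighbour of the same kind in IGFBP1, 18584 bases away on chromosome 7, which encodes a hepatocyte product regulated by insulin and was listed at 0.10, 0.25 and 0.20 FPKM.

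IGFBP4 and IGFBP6 were lower together. IGFBP4 was 32.6% lower than vehicle at 50 ng/mL and 33.1% lower at 100 ng/mL, or -0.57 and -0.58 on the log2 scale. IGFBP6 was 35.7% and 38.1% lower, or -0.64 and -0.69. Neither passed 2-fold, and at 1.5-fold IGFBP6 alone of the 9 was lower at both doses, where 13.5% and 12.5% of all symbols were. At that threshold 5 of the 9 were higher at each dose, where 50.9% and 50.8% of all symbols were, with IGF2R as the fifth. Both have GC-rich transcripts, 62.5% for IGFBP4 and 64.1% for IGFBP6, in the range where most symbols had values below 0. After the GC trend was removed, IGFBP4 stood at -0.13 and -0.16 and IGFBP6 at -0.15 and -0.22, near the middle of all symbols (percentiles 39.0 and 36.5 for IGFBP4, 37.8 and 32.4 for IGFBP6). With the trend on transcript length removed they passed 2-fold lower, IGFBP4 at -1.26 and -1.25 and IGFBP6 at -1.11 and -1.16. Under that setting 2014 and 1882 of 12397 symbols were lower by more than 2-fold. The ratio of IGFBP4 to IGFBP6, which compares a pair of genes of like GC content within a library, was 1.47, 1.54 and 1.58.

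The promoters of these 4 binding protein genes are shown because they form the pairs with opposite signs, IGFBP3 and IGFBP5 higher and IGFBP4 and IGFBP6 lower. Each window holds 250 bases before and 50 after the annotated start in the direction of transcription, from RefSeq on GRCh38.p14. They are chr7:45921223-45921522 on the minus strand for IGFBP3, chr2:216695500-216695799 on the minus strand for IGFBP5, chr17:40443200-40443499 on the plus strand for IGFBP4 and chr12:53097417-53097716 on the plus strand for IGFBP6. For IGFBP6 the window opens at 53097417, whereas the expression table lists the gene from 53097436 on. Most bases before its RefSeq start thus lie inside the gene as listed. Capitals mark TATA-like elements and GC boxes, whose letters are given after the sequences and which were searched on both strands.
IGFBP3: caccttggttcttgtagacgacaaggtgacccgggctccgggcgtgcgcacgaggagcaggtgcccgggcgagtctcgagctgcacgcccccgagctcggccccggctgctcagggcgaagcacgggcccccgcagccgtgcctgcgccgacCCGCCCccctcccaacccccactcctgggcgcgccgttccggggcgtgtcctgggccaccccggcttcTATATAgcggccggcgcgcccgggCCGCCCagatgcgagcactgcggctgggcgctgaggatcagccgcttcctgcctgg
IGFBP5: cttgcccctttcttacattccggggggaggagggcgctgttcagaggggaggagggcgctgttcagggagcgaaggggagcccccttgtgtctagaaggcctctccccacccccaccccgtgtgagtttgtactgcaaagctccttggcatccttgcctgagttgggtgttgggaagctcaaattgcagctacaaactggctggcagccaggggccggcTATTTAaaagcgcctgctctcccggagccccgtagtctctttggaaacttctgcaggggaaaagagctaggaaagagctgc
IGFBP4: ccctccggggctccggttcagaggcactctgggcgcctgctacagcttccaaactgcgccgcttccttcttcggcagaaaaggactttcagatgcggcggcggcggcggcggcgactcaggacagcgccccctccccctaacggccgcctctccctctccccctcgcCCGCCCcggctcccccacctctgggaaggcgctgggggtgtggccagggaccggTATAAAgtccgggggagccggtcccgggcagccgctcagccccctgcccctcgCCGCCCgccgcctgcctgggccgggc
IGFBP6: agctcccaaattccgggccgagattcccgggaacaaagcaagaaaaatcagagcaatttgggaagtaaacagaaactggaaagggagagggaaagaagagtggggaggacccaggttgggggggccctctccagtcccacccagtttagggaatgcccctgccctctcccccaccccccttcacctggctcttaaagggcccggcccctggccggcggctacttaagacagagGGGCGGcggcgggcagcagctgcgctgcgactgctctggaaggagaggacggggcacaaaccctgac

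The TATA-like elements did not divide the promoters by direction. IGFBP4 had TATAAA beginning 29 bases before the start, a match found in 11.5% of 35116 RefSeq promoters of this length. IGFBP3 had TATATA 30 bases before the start and IGFBP5 had TATTTA 31 bases before it, variants found in 3.99% and 12.6% of promoters and added to the search after the sequences were seen. IGFBP6 held none of these 3. GGGCGG, the core of the GC box bound by SP1 family factors and present in 45.0% of all promoters, occurred 98 and 6 bases before the start of IGFBP3, 83 before and 25 after that of IGFBP4 and 17 before that of IGFBP6, and was not found in the window of IGFBP5. The windows of IGFBP3 and IGFBP4 had 74.7% and 74.0% GC, those of IGFBP6 and IGFBP5 61.7% and 59.0%, and the median over all promoters was 58.7%. TTCNNNGAA, a pattern that STAT factors bind, was found in 7.66% of promoters, and TGACTCA, the AP-1 pattern, in 4.95%. Both were searched on both strands as well and matched no promoter window of the axis. Patterns with another number of bases between TTC and GAA were not searched. CACGTG, the E box, found in 7.26% of promoters, occurred in the window of IGF2R 132, 74 and 28 bases before the start, beside 6 matches of GGGCGG there, and in no other window of the axis. Of the 10 genes, 8 had a promoter entry.

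In the pool of binding protein mRNA, IGFBP5 and IGFBP3 took larger shares with rhFGF19 than in vehicle. The summed FPKM of IGFBP2 to IGFBP7 was 739 in vehicle, 519 with 50 and 511 with 100 ng/mL. IGFBP4 held 57.8%, 55.5% and 56.0% of it and IGFBP6 39.4%, 36.1% and 35.3%, so that together they took 97.2% in vehicle and 91.6% and 91.3% with rhFGF19. IGFBP5 went from 1.71% to 6.27% and 6.67% and IGFBP3 from 0.0960% to 0.528% and 0.482%. The share of IGFBP7 was 0.990%, 1.55% and 1.502%, and IGFBP2 never passed 0.0431%. Once the GC trend was removed the share of IGFBP5 was 5.18% and 5.53% and that of IGFBP3 0.385% and 0.354%, still above vehicle, that of IGFBP7 was 0.966% and 0.952%, below vehicle, and IGFBP4 and IGFBP6 together held 93.4% and 93.1%. The summed level was then 698 and 679 FPKM, nearer to the 739 of vehicle. Shares of FPKM compare mRNA per length and say nothing of secreted protein. The ratio of IGFBP4 to IGFBP5 was 33.8 in vehicle, 8.86 with 50 and 8.39 with 100 ng/mL, or 10.8 and 10.2 with the GC trend removed.

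**Figure D2:**
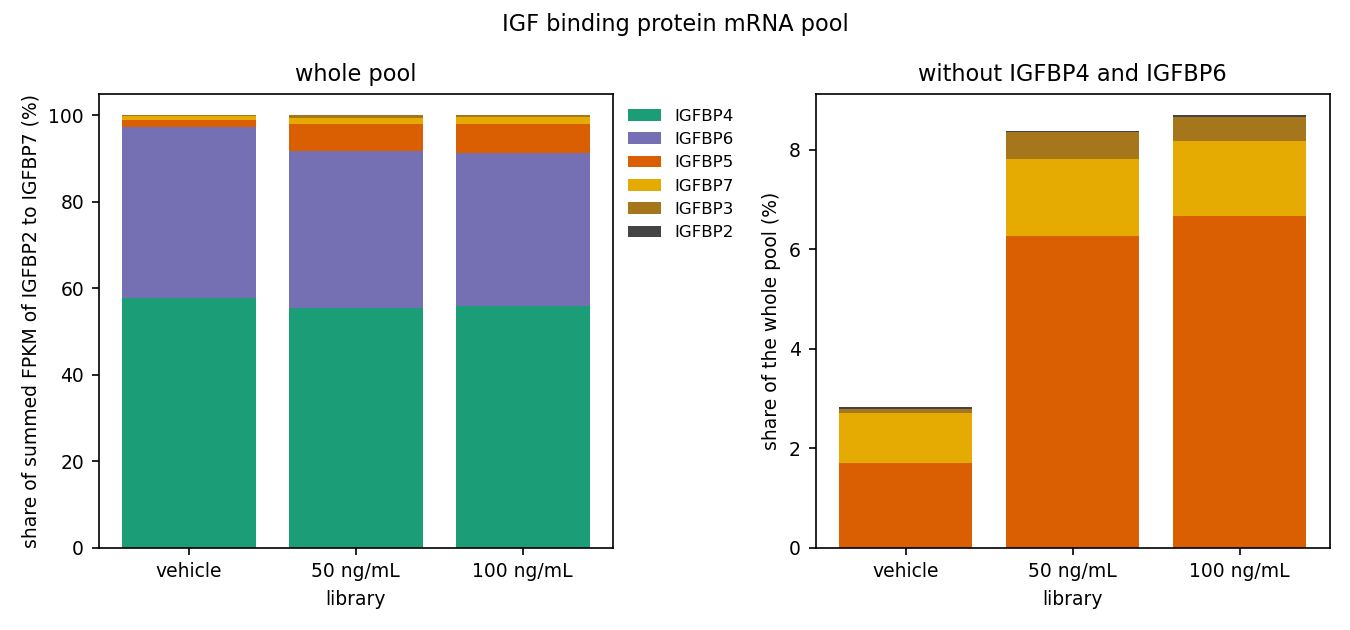
Share of each gene in the summed FPKM of IGFBP2 to IGFBP7, in percent, in the 3 libraries, as stacked bars for the whole pool (left) and without IGFBP4 and IGFBP6 (right, shares still of the whole pool). IGFBP4 and IGFBP6 fill 97.2% of the vehicle bar and 91.3% of the 100 ng/mL bar, and the band of IGFBP5 widens from 1.71% to 6.67%.

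IGFBP7 showed little difference. Its level was 7.32 FPKM in vehicle, 8.04 with 50 and 7.67 with 100 ng/mL, or 0.13 and 0.07 on the log2 scale, and the sign turned to -0.12 and -0.18 once the GC trend was removed and also turned with the median ratio set to 0 and with quantile normalization. The gene overlaps POLR2B, a subunit gene of RNA polymerase II on the opposite strand, which was listed at 2.65, 10.28 and 9.26 FPKM. The sources used here do not say that reads were assigned by strand, so reads of this pair cannot be told apart where they overlap. Its antisense gene IGFBP7-AS1 was listed at 0 in all 3 libraries.

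IGF2 was the ligand described here, and the other ligand genes IGF1, INS and INS-IGF2 were not among the symbols listed. IGF2, an imprinted fetal growth factor, was listed at 5.54 FPKM in vehicle, 8.33 with 50 and 8.09 with 100 ng/mL. Both rhFGF19 libraries lay above vehicle, by 0.58 and 0.54 on the log2 scale, which is below 2-fold and close to the 0.62 of all symbols. Its transcripts were GC-rich at 59.1%, where most symbols were below 0, and 0.85 and 0.79 remained once the GC trend was removed. Removing the trend on transcript length in its place turned the values to -0.40 and -0.42. IGF2-AS on the opposite strand overlaps the gene and had 1.36, 1.39 and 1.04 FPKM, so here too reads of the overlap cannot be told apart. Per unit of IGF2, the summed binding proteins stood at 133 in vehicle, 62.3 with 50 and 63.1 with 100 ng/mL, a ratio of FPKM values in each library, and at 69.6 and 70.4 once the GC trend was removed.

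Among the receptors, the signalling receptors were low and higher with rhFGF19, whereas IGF2R was the most abundant. IGF1R, the main IGF receptor, was listed at 1.86 FPKM in vehicle, 4.17 with 50 and 3.55 with 100 ng/mL. Its log2 difference of 1.12 passed 2-fold at 50 ng/mL, the 0.90 at 100 ng/mL did not, and 0.63 and 0.41 remained after the GC trend was removed. INSR, the insulin receptor, was listed at 0.21, 0.90 and 0.69 FPKM, 4.29-fold and 3.29-fold vehicle, or 1.69 and 1.35 on the log2 scale. It stood at 0.21 FPKM in vehicle, near the level of IGFBP2, so the fold, at 50 ng/mL the largest plain ratio of the axis, is that of a low mRNA, and with a pseudocount of 1 the differences were 0.65 and 0.48. After the GC trend was removed, INSR kept 1.57 and 1.23 with the median over its transcripts (54.9% GC) and 0.92 and 0.59 with its longest transcript, of 8954 bases and 49.0% GC. The passage of 2-fold by INSR thus depended on which transcript was taken. The ratio of IGF1R to INSR was 8.86 in vehicle and 4.63 and 5.14 with rhFGF19, or 3.57 and 4.001 with the GC trend removed, and INSRR, the insulin receptor-related receptor, was listed at 0, 0.04 and 0 FPKM.

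IGF2R followed the trend of the whole table. Its 10.8 FPKM in vehicle became 19.4 with 50 and 19.02 with 100 ng/mL, or 0.84 and 0.81 on the log2 scale, below 2-fold. With a transcript GC content of 49.4% the trend over all symbols stood at almost the same values, and the differences left were below 0.02 in size, or 0.11 and 0.09 with the GC content of the longest transcript. M6PR, which encodes the smaller cation-dependent mannose 6-phosphate receptor, had nearly the same GC content of 49.0% and was listed at 17.9, 35.4 and 35.1 FPKM. The ratio of IGF2R to M6PR was 0.607, 0.549 and 0.542, with both levels above vehicle. Relative to its ligand, IGF2R stood at 1.95, 2.33 and 2.35 times IGF2, above vehicle with rhFGF19, whereas once the GC trend was removed it stood at 1.09 and 1.12 times IGF2, below vehicle.

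**Figure D3:**
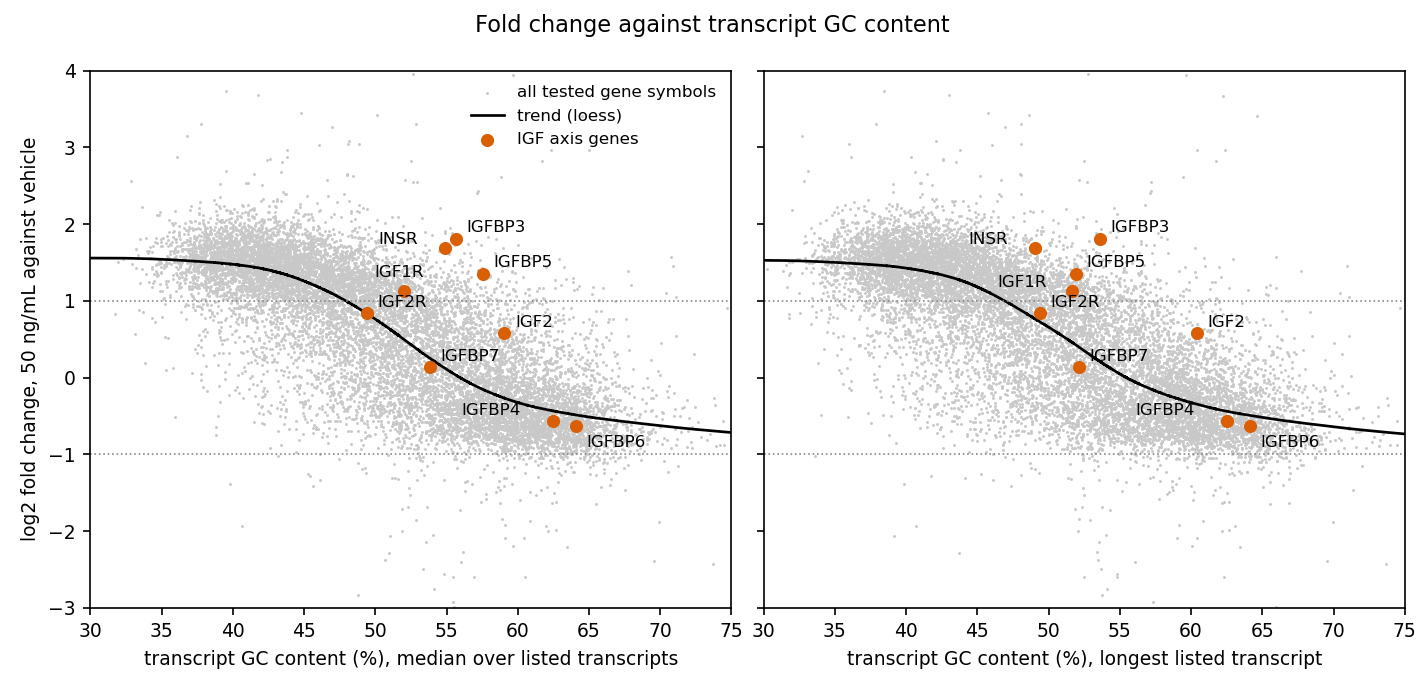
Log2 fold change of 50 ng/mL against vehicle over the GC content of transcripts in percent, taken as the median over a gene's listed transcripts (left) or from its longest one (right), with all tested symbols in grey, their trend in black, the 9 genes of the axis in orange and dotted lines at 2-fold (symbols beyond the axes are not drawn). IGF2R, IGFBP4, IGFBP6 and IGFBP7 lie on or near the trend. IGFBP3 lies 1.78 and 1.60 above the trend, and IGFBP5 and INSR come closer to it in the right panel.

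With the GC trend removed, 3 of the 9 genes were higher by more than 2-fold at either dose (IGFBP3, IGFBP5 and INSR), where 3.74% and 3.33% of all symbols were. INSR, which reached the level asked for only through the rhFGF19 libraries, is among the 3, so this count too is a description. With the GC content of the longest transcript the count was 1 at 50 ng/mL (IGFBP3) and 2 at 100 ng/mL (IGFBP3 and IGFBP5), where 3.28% and 2.94% of all symbols were. No gene of the axis was lower by more than 2-fold under either correction, where 5.13% and 4.59% of all symbols were under the former and 6.03% and 5.28% under the latter. Over the 9 genes the Spearman rho of fold change and GC content was -0.45 with 50 and -0.42 with 100 ng/mL, and -0.65 and -0.60 with the longest transcript, a description of points that share the same libraries. Across the other settings tried, IGFBP3, IGFBP5, INSR and IGF1R kept values above 0 and IGFBP4 values below 0 at both doses in every setting that gave them a value. IGFBP6 changed sign in 1 of them, to 0.12 and 0.04 with the GC and then the length trend of the longest transcript removed, where IGFBP4 stood at -0.03 and -0.06. IGFBP7, IGF2R and IGF2 changed sign in some of them.

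**Figure D4:**
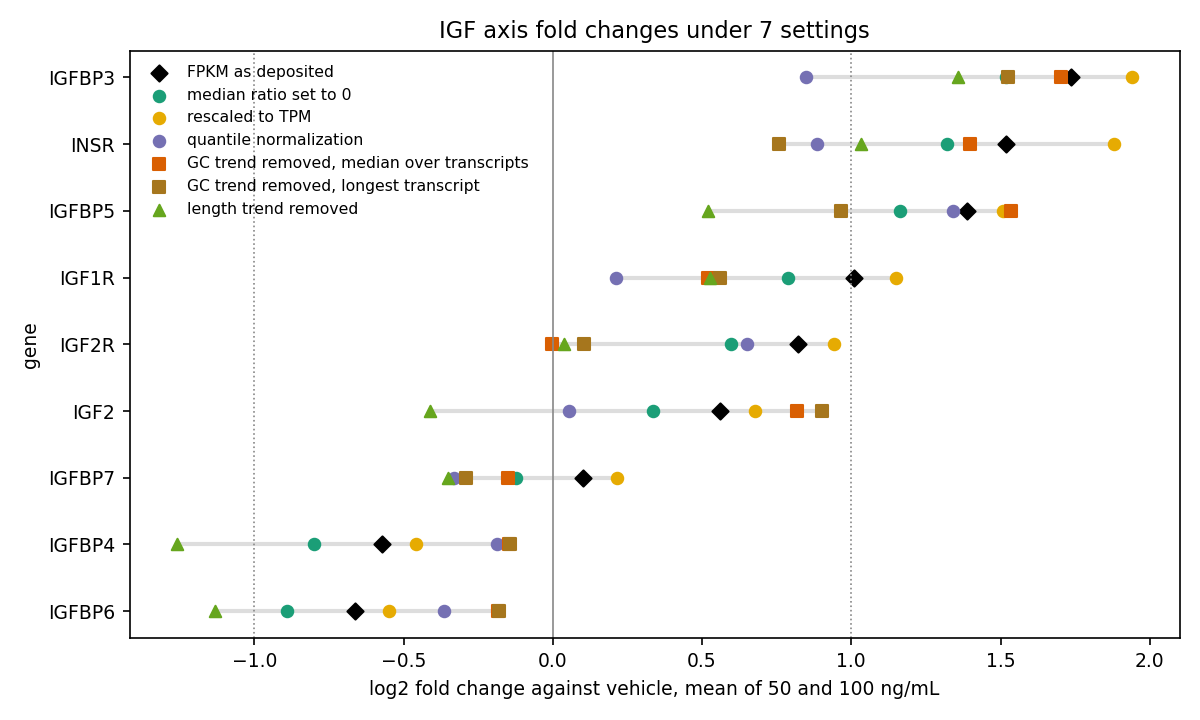
Log2 fold change against vehicle, averaged over 50 and 100 ng/mL, of the 9 genes of the axis under 7 settings, with 1 point per setting, a grey bar for their range and dotted lines at 2-fold. With FPKM as deposited IGFBP3 lies furthest to the right, IGFBP4 and IGFBP6 stay left of 0, and the bars of IGFBP7, IGF2 and IGF2R reach across 0.

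The other genes of the pathway were described through 59 genes in 9 roles, of which 54 were listed and 39 reached 0.5 FPKM. Of these 39, 17 were higher by more than 2-fold at each dose, 16 of them at both, where 39.4% and 38.5% of all symbols were, and none was lower, where 1.75% and 1.47% were, with a median of 0.98 with 50 and 0.87 with 100 ng/mL. The Spearman rho of fold change and GC content over the 39 genes was -0.85 and -0.84, and -0.79 at either dose with the longest transcript, again a description. Among the 17 genes below 50% GC, 15 passed 2-fold at each dose, and among the 22 at or above it 2 did. Over all symbols rho was -0.77 at each dose. The share of all symbols past 2-fold on each side of 50% GC was not computed, so this split describes the 39 genes only. Once the trend was removed 2 of the 39 passed 2-fold at either dose, where 3.74% and 3.33% of all symbols were higher. These were IRS2, an insulin receptor substrate, at 1.25 and 1.41, and PDPK1, the kinase that activates AKT, at 1.39 and 1.23, both named after their values were seen. With the GC content of the longest transcript IRS2 kept 1.26 and 1.42, whereas PDPK1 stood at 0.95 and 0.81, short of 2-fold.

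The genes that act on the binding proteins had 6 of 8 members at sufficient level. At each dose 3 were higher by more than 2-fold, where 39.4% and 38.5% of all symbols were. PAPPA, which encodes the protease that cuts IGFBP4 and IGFBP5, was listed at 1.25 FPKM in vehicle, 3.03 with 50 and 2.87 with 100 ng/mL, and its inhibitor gene STC1 at 4.68, 10.2 and 9.82 FPKM, so that the ratio of IGFBP4 to PAPPA was 342 in vehicle and 95.1 and 99.6 with rhFGF19, or 269 and 275 once the GC trend was removed. STC2, the other stanniocalcin that blocks PAPP-A, was listed at 37.8, 51.1 and 50.8 FPKM and did not pass 2-fold. PAPPA, STC1 and STC2 were named here after their values were seen, for their role in cutting IGFBP4. ADAM9, a membrane protease that can cut IGFBP5, was listed at 5.81, 18.8 and 18.0 FPKM, and MMP14, a membrane collagenase, stood at 86.9, 87.2 and 86.8 FPKM. After the GC trend was removed none of the 6 passed 2-fold, where 3.74% and 3.33% of all symbols were higher and 5.13% and 4.59% lower. IGF2BP2, an RNA-binding protein that binds IGF2 mRNA, was listed at 5.02, 12.7 and 12.0 FPKM and passed 2-fold at both doses, with 0.40 and 0.33 remaining once the trend was removed. H19, the imprinted neighbour of IGF2, was listed at 0, 0.03 and 0 FPKM.

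Downstream of the receptors, counts of higher genes before any trend was removed are read against the 39.4% and 38.5% of all symbols. Of 7 adaptor genes 3 were higher by more than 2-fold at each dose, among them PTPN1, a phosphatase that turns off INSR and IGF1R, at 8.98, 22.1 and 22.3 FPKM. SHC1, an adaptor that leads to RAS, was listed at 112, 96.6 and 93.3 FPKM, and SH2B1, an adaptor of the insulin receptor, at 5.07, 4.0 and 3.80 FPKM, both without passing 2-fold. Of 16 genes of PI3K, AKT and mTOR, 9 passed 2-fold at each dose. RICTOR, the scaffold of mTOR complex 2, was listed at 0.50, 1.78 and 1.74 FPKM, whereas AKT1, the most abundant gene of the list, was listed at 87.5, 52.9 and 53.6 FPKM, and none of the 16 was lower by more than 2-fold. After the GC trend was removed 1 of the 7 adaptor genes (IRS2) and 1 of the 16 (PDPK1) were higher by more than 2-fold at either dose. Of all symbols 3.74% and 3.33% then were. With the GC content of the longest transcript IRS2 stayed past 2-fold, and 0 of the 16 were, where 3.28% and 2.94% of all symbols were higher. The proprotein convertase genes FURIN and PCSK7, whose products cut the receptor precursors, were listed at 113, 76.0 and 76.2 FPKM and at 8.60, 6.16 and 5.82 FPKM. PCSK7 stood at -0.47 and -0.56 on the log2 scale and at -0.53 and -0.61 once the GC trend was removed. With the GC content of its longest transcript, 46.3% beside a median of 55.4%, it stood at -1.53 and -1.59, past 2-fold lower. In the mannose 6-phosphate route GNPTAB, which starts the tagging of lysosomal enzymes, was listed at 0.59, 1.73 and 1.94 FPKM and passed 2-fold as 1 of 7, whereas NAGPA, which completes the tag, was listed at 10.0, 7.07 and 7.44 FPKM.

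**Figure D5:**
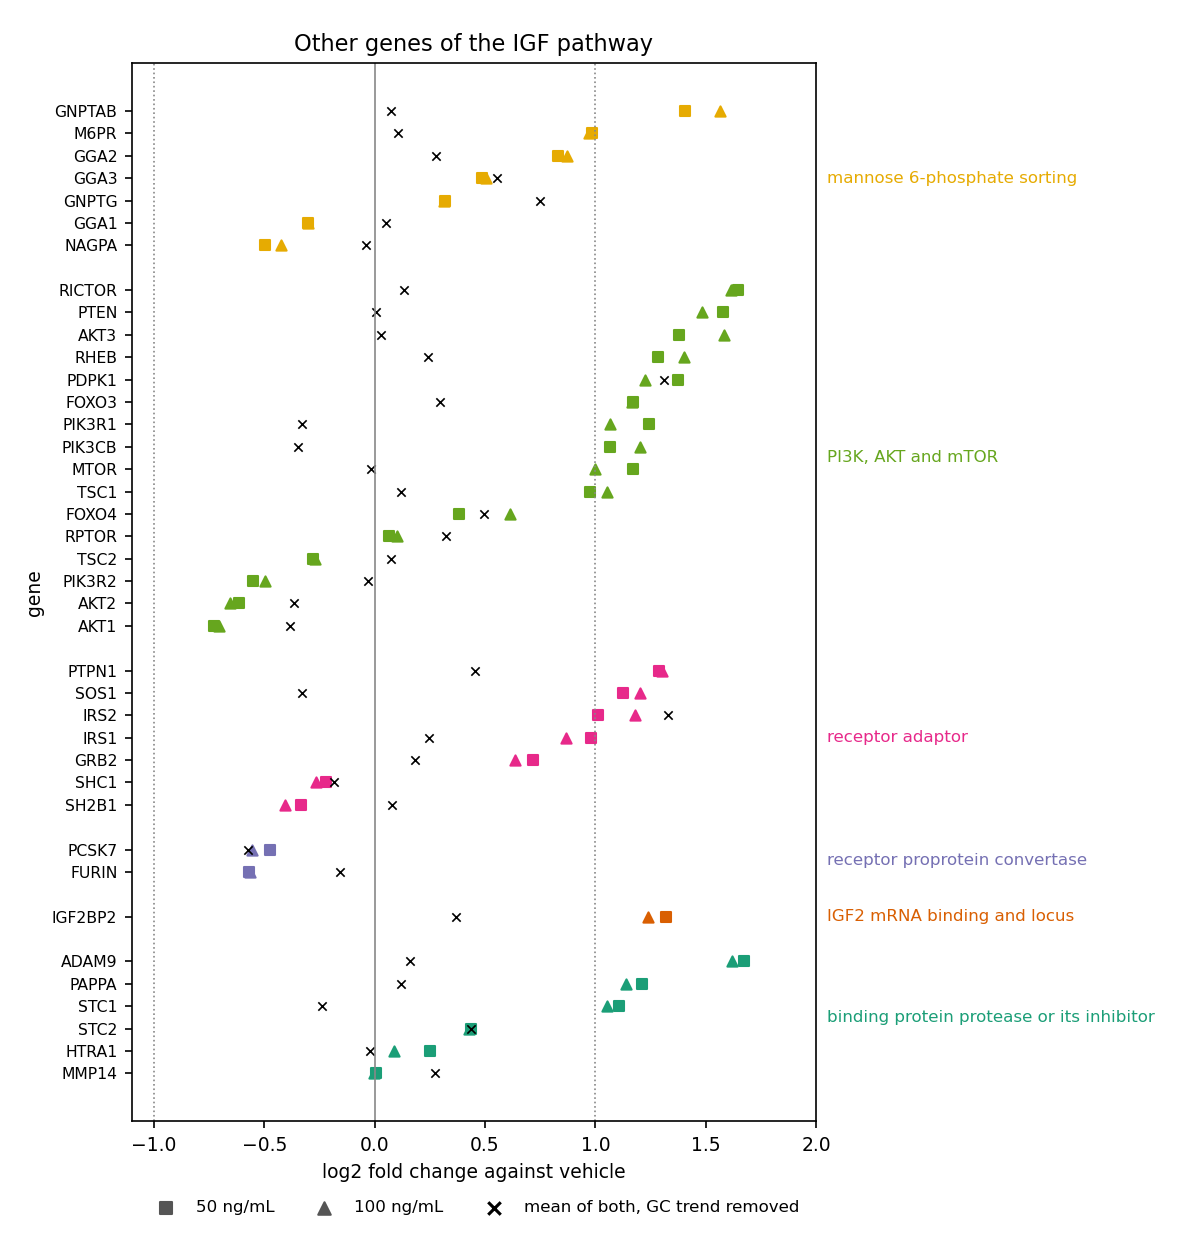
Log2 fold change against vehicle of the 39 other pathway genes by role, with squares for 50 ng/mL, triangles for 100 ng/mL, crosses for the mean of both after the GC trend was removed and dotted lines at 2-fold. Genes such as RICTOR and ADAM9 lie right of 1 and AKT1 and FURIN left of 0. Most crosses, which use the median GC content over transcripts, gather near 0, whereas those of IRS2 and PDPK1 stay above 1.

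The remaining binding protein genes were near the lower limit of the table. IGFBPL1 was listed at 0, 0.10 and 0.13 FPKM and IGFALS, which encodes the acid-labile subunit of the IGF carrier complex in blood, at 0.16, 0.05 and 0.10 FPKM. Neither reached a level for a fold change. The coordinates of the table give the genes of the axis as IGFBP4 on chromosome 17 at 40443450 to 40457725, IGFBP6 on chromosome 12 at 53097436 to 53102345, IGFBP3 on chromosome 7 at 45912245 to 45921274, IGFBP5 and IGFBP2 on chromosome 2 at 216672105 to 216695549 and 216632828 to 216664436, and IGFBP7 on chromosome 4 at 57030773 to 57110385. IGF2 lies on chromosome 11 at 2129112 to 2141238, IGF1R on chromosome 15 at 98648539 to 98964530, INSR on chromosome 19 at 7112255 to 7294414 and IGF2R on chromosome 6 at 159969082 to 160113507. These positions overlap those of GRCh38, whereas the submitters' notes name other builds.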

How the data were processed

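The mRNA of 3 LX-2 cultures (vehicle, 50 and 100 ng/mL rhFGF19) was sequenced. Reads were mapped with HISAT2, and the authors deposited FPKM for 26108 genes in each library, rounded to 2 decimals. The submitters' processing notes also name HISAT2 2.0, StringTie 1.3.0, Bowtie 0.12.2 and the builds mm8 and hg19, without their roles. The paper's methods describe logCPM, whereas the deposited values are FPKM. Of 25531 genes matched to GENCODE v29, 99.7% overlapped their GRCh38 position. FPKM keeps no read counts, so no count test was possible.

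Rows sharing a symbol were summed. Fold changes were differences of log2(FPKM + 0.1) between single libraries for symbols averaging 0.5 FPKM or more, and an absolute log2 value above 1 counted as past 2-fold, the criterion of the study. Transcript GC content and length came from GENCODE v29, as the median over a gene's listed transcripts, and trends were removed by loess with a span of 0.3. The genes and lists were chosen with earlier results of these data known. Beside the 10 genes, the genes named were the ligand and binding protein genes and, in each role, the gene with the highest mean level and those with the highest and the lowest mean fold change. Of the other settings tried, 12 varied the pseudocount, filter, scaling, trends, threshold, handling of symbols and the pool, and 2 more, the GC trend of the longest transcript alone and with its length trend, were added after seeing the data. Promoters came from RefSeq on GRCh38.p14. The steps were tested on simulated data. Python 3.11.15, NumPy 2.4.6, pandas 2.3.3, SciPy 1.17.1, statsmodels 0.14.6 and matplotlib 3.10.9 were used.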

Additional observations from a re-analysis of the deposited data

Results flagged for a closer look

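MMP14, a membrane protease gene of the pathway lists, had fold changes of opposite sign at the 2 doses, with log2 values against vehicle of 0.004 with 50 and -0.0023 with 100 ng/mL. Both are close to 0, there is 1 library per dose, and the difference was not tested.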

How the results depend on the processing

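With 1 library per condition none was left out, and folds of genes near 0 FPKM are the least certain. No paired analysis was possible because the labels carry no replicate numbers and each condition has 1 library. Where a count moved, the cause was not tested.

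Counts are of genes past 2-fold at 50 and then 100 ng/mL. Counts of all symbols are out of 12422, or out of 12397 where a trend was removed. A pseudocount of 1 left 2 genes of the axis higher at 50 ng/mL and 5 and 4 pathway genes higher, where 2186 and 2071 of all symbols were. The median over the axis was then 0.48 at 100 ng/mL. Setting the median ratio to 0 left 10 and 9 pathway genes higher, where 3774 and 3686 of all symbols were. Quantile normalization left 2 and 1 genes of the axis and 4 and 4 pathway genes higher, where 1142 and 1043 of all symbols were. It left 1 pathway gene lower at 100 ng/mL, where 1121 of all symbols were, and medians of 0.33 and 0.098. Removing the GC trend left 2 and 2 pathway genes higher, where 464 and 413 of all symbols were. It left a median of 0.41 at 100 ng/mL and pool shares of 5.18% and 5.53% for IGFBP5 and 37.6% and 36.9% for IGFBP6. Removing the length trend left 2 and 1 genes of the axis and 4 and 4 pathway genes higher, where 1736 and 1681 of all symbols were. It left 2 and 2 genes of the axis (IGFBP4 and IGFBP6) and 3 and 3 pathway genes lower, where 2014 and 1882 of all symbols were. The medians were then 0.047 and 0.031. Removing both trends left 2 and 2 pathway genes higher, where 486 and 429 of all symbols were, and a median of 0.46 at 100 ng/mL. Removing the GC trend of the longest transcript, chosen after seeing the data, left 1 gene of the axis higher at 50 ng/mL and 1 and 1 pathway genes higher. There 407 and 364 of all symbols were higher. It left 1 and 1 pathway genes lower, where 747 and 655 of all symbols were, and a median of 0.45 at 100 ng/mL. Removing its length trend as well, also chosen after seeing the data, left 1 and 1 genes of the axis and 1 and 1 pathway genes higher. There 474 and 416 of all symbols were higher. It left 1 and 1 pathway genes lower, where 590 and 530 of all symbols were, and a median of 0.33 at 100 ng/mL.

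A threshold of 1.5-fold made 5 genes of the axis higher at 100 ng/mL, where 50.8% of all symbols were. It made 1 and 1 genes of the axis and 2 and 2 pathway genes lower, where 13.5% and 12.5% of all symbols were. Leaving IGFBP7 out of the pool made the share of IGFBP4 56.4% and 56.8%. The other pseudocount and filters, rescaling to TPM and keeping the highest row of a symbol kept the counts within 1.5 times those reported and the medians within 0.32 of them, the SD of all symbols between the rhFGF19 libraries. Asking for a mean of 1 FPKM removed INSR and left 3 and 2 of 8 genes of the axis higher, where 3966 and 3876 of 10485 symbols were. The medians were then 0.71 and 0.67. Pool shares were recomputed only with the GC trend removed and without IGFBP7.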
